A study of Homo sapiens with 6 samples.

Results

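The genes described here are the NF-kB subunit gene NFKB1, the inhibitor gene NFKBIA and the cytokine genes IL8 and TNF. They were chosen by name as members of 1 pathway, 4 of the 89 genes that a PCR array for cancer pathways measures. RNA came from Panc-1 cells, a human pancreatic carcinoma line, in 3 conditions with 2 plates each. All cells carried the tet-on plasmid, which makes a promoter respond to doxycycline. Tet-on driver cells, with no CaSm construct, were grown with 1 µg/ml doxycycline. Tet-on CaSm cells, which also held inducible full-length human CaSm, were grown either without doxycycline (non-induced) or with 1 µg/ml (induced). Culture lasted 4 weeks in every condition. CaSm, also called LSm1, belongs to a protein complex that acts in mRNA decay. Both lines were stable pools and not single clones, and the methods add puromycin to the selection of the tet-on CaSm pool alone. The titles of the plates end in 1 of 3 marks, in part shared between conditions, whose meaning the sources used here do not state. The plates are numbered by these marks as sets 1 to 3, so driver cells have replicates 2 and 3 and each tet-on CaSm condition has replicates 1 and 2. Only set 2 holds plates of all 3 conditions. Nothing in the sources used here says that the plates of a condition held RNA from separate cultures, so p-values measure only the spread between plates, which may be technical.

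NF-kB is a family of dimeric transcription factors that answer to inflammatory signals. NFKB1 encodes a precursor that is processed to the p50 subunit. NFKBIA encodes IκBα, which holds NF-kB dimers in the cytoplasm until an upstream kinase marks it for destruction. IL8, which the current nomenclature calls CXCL8, encodes a chemokine that draws neutrophils, and TNF encodes the cytokine tumor necrosis factor, which is both a product and an activator of the pathway. All 4 genes are known transcriptional targets of NF-kB, so that the inhibitor and the subunit are remade after activation. Much of the control of the pathway acts on protein, which a PCR array does not measure. Pancreatic carcinoma cells are known for basal NF-kB activity and for making IL8.

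The DNA just upstream of each gene was searched for the sites that NF-kB is known to bind. The RefSeq tables of the GRCh38.p14 build place NFKB1 on chromosome 4 (102501359-102617302), NFKBIA on chromosome 14 (35401513-35404749), IL8 on chromosome 4 (73740569-73743716) and TNF on chromosome 6 (31575565-31578336). The last 100 bases before each gene's start are printed 5′ to 3′ on the gene's strand, with capitals where the NF-kB consensus site or its shorter form GGNNNTTCC matched on either strand. The positions are chr4:102501259-102501358 (plus strand) for NFKB1, chr14:35404750-35404849 (minus strand) for NFKBIA, chr4:73740469-73740568 (plus strand) for IL8 and chr6:31575465-31575564 (plus strand) for TNF.
NFKB1: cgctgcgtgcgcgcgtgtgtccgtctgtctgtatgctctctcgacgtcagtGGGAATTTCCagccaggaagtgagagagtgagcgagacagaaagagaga
NFKBIA: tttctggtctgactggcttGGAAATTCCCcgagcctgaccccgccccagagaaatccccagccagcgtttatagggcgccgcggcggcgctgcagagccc
IL8: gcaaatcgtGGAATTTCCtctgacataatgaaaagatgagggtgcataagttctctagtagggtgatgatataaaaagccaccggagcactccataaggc
TNF: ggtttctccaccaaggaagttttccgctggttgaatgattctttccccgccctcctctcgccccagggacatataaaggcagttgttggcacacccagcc
Over the 250 bases upstream, NFKB1 and NFKBIA each had 1 match to the consensus, and IL8 had a match to the shorter form alone, 91 to 83 bases before its start. The match in NFKB1 lay 49 to 40 bases and that in NFKBIA 81 to 72 bases before the start, and in both genes the shorter form matched inside it. A further match to the shorter form lay 242 to 234 bases before the NFKBIA start. A second RefSeq start of NFKB1 had no match to any of the motifs searched. Neither form matched in the TNF window, which says only that these letters are not in it. Every motif was searched on both strands, also for the shares below. The AP-1 motif TGANTCA matched in the IL8 window alone. The TATA box TATAAA matched on the gene's strand in the windows of IL8 and TNF, and on the opposite strand in that of NFKBIA. Of all 35116 windows of this length in the table, 9.96% held the consensus, 17.1% the shorter form, 6.57% the AP-1 motif and 10.7% the TATA box. These matches describe the DNA and not its use in Panc-1 cells.

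For each gene and plate the deposited value is a threshold cycle (Ct), the PCR cycle at which its product was detected, and 1 cycle more is roughly 1 log2 unit less RNA. The level of a gene is given here as ΔCt, its Ct (set to 35 if later) less the average Ct of the housekeeping genes B2M, HPRT1 and GAPDH from that plate, so a higher ΔCt is a lower RNA level. That average lay between 19.7 and 20.3 on the 6 plates, and induced replicate 1 had the earliest. The ΔCt of different genes rests on different primers and is not compared as an amount of RNA. The number of plates limits the precision, since a two-sided exact permutation test of 2 plates against 2 cannot give a p-value under 0.333, or of 2 against 4 under 0.0667. Of the genes on the array that mark other cell types, GZMA, a gene of cytotoxic lymphocytes, was later than 35 on 5 of the 6 plates and TEK, an endothelial receptor gene, on 4. LSM1, the gene of CaSm itself, is not among the genes of the array, so these plates do not show its induction. The authors checked its level in a separate PCR. In RNA from whole cultures, fewer cells that make a transcript and less of it per cell cannot be told apart.

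NFKB1, NFKBIA and IL8 were held within a narrow band over all 3 conditions, whereas TNF spread over a much wider one. NFKB1 had a ΔCt of 3.72 and 3.66 in driver cells, 3.91 and 3.72 in non-induced cells, and 4.03 and 4.02 in induced cells. Both induced plates lay below all 4 control plates in RNA level, and the order of the means was driver, non-induced, induced, an order that was not kept with GAPDH alone or the median of all genes as the scale. The difference between neighbors in that order did not pass the test used below.

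**Figure D1:**
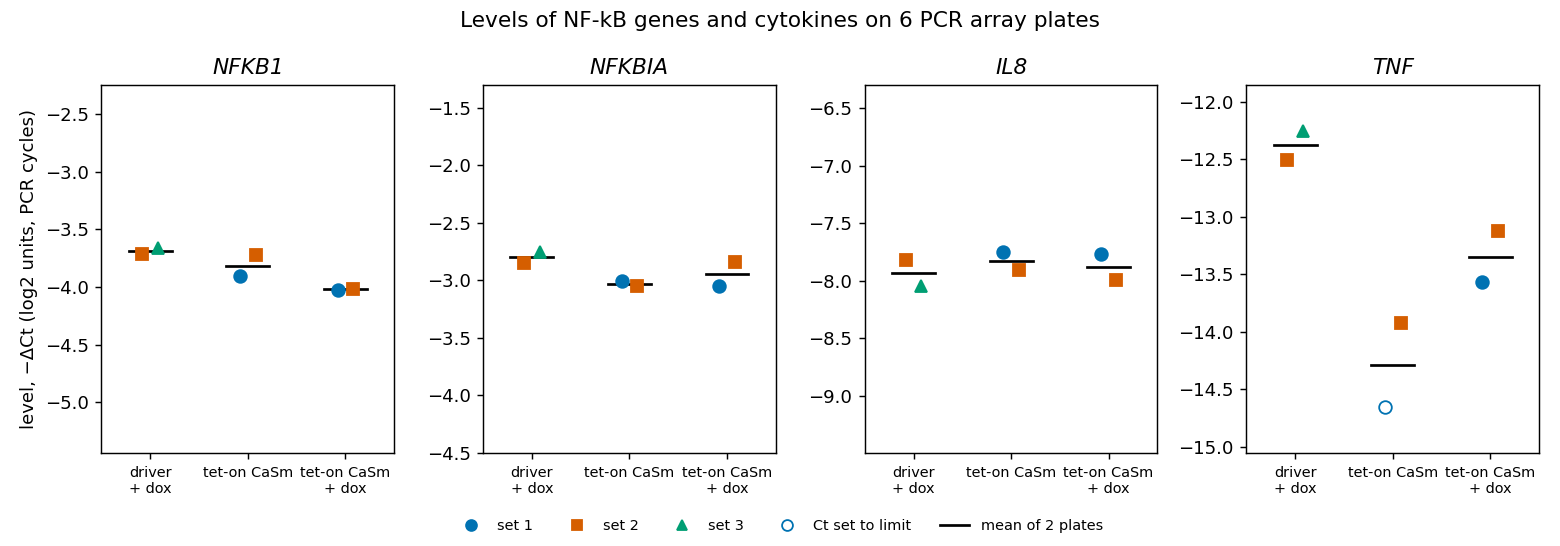
Level (−ΔCt, log2 units, higher is more RNA) of each gene on each of the 6 plates, by condition, with all panels spanning the same number of cycles. Symbols show the set, the open circle a Ct set to the limit of 35, and bars the mean of 2 plates. NFKB1, NFKBIA and IL8 stay close to 1 level, while TNF is highest on the driver plates and lowest on the non-induced plates.

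NFKBIA had a ΔCt of 2.85 and 2.75 in driver cells, 3.01 and 3.05 in non-induced cells, and 3.05 and 2.84 in induced cells. Its driver plates lay above the non-induced plates in RNA level, and the induced plates spanned the gap between them. The mean order was driver, induced, non-induced. For IL8 the ΔCt was 7.82 and 8.05 in driver cells, 7.75 and 7.90 in non-induced cells, and 7.77 and 8.0 in induced cells. All pairs of conditions overlapped for IL8, and the 2 plates of any condition differed by more than the condition means did.

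TNF had a ΔCt of 12.5 and 12.3 in driver cells, 14.7 and 13.9 in non-induced cells, and 13.6 and 13.1 in induced cells. The 3 conditions did not overlap, which also held for NFKB1, and the order of the RNA level was driver, induced, non-induced. Single pairs of conditions were apart in 50.6% to 61.4% of genes tested. The share of genes apart in all 3 pairs was not counted. The order was the same in the Ct before any scaling, at 32.6 and 32.5 for driver, 33.3 and 33.3 for induced, and 35.5 and 34.1 for non-induced plates. The Ct of 35.46 on non-induced replicate 1 was past the limit and entered as 35. These are late cycles, at which few template molecules are amplified. Of the 18 genes with a mean Ct of 30 or later, TNF had the second widest range of ΔCt, after TEK.

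Over all 6 plates the ΔCt of IL8 and of NFKBIA each ranged over 0.30 cycles, the narrowest ranges of the 85 genes, and that of NFKB1 over 0.37, rank 82 from the widest. The median range of the 85 genes was 0.99 cycles. TNF ranged over 2.41 cycles and had rank 3. How narrow the first 3 are depended on the scaling. With the median of all genes in place of the 3 housekeeping genes, NFKB1 ranged over 1.11 cycles and NFKBIA over 1.12, ranks 37.5 and 36, against a median of 0.95. With B2M alone their ranks were 56.5 and 60. With no scaling at all, NFKB1, NFKBIA and IL8 ranged over 0.49, 0.57 and 0.78 cycles, ranks 76, 74 and 72. IL8 kept a rank between 70.5 and 84.5 under the 6 scalings compared, no scaling included, and TNF one between 2 and 7.

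**Figure D2:**
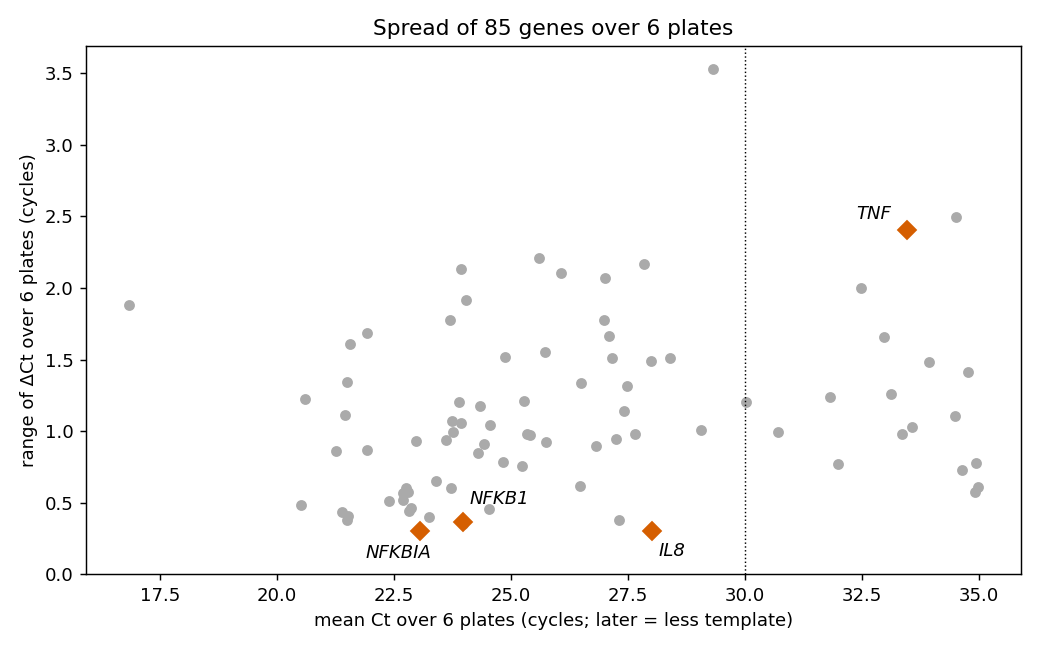
Range of ΔCt over the 6 plates (cycles) against the mean Ct (cycles) for 85 genes, with the 4 NF-kB genes and cytokines as diamonds and the dotted line at a mean Ct of 30. IL8, NFKBIA and NFKB1 lie at the bottom, at 0.30 to 0.37 cycles, and TNF near the top at 2.41.

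The main comparison of the study set induced tet-on CaSm cells against driver cells, both with doxycycline. These cells differ in construct, puromycin selection and in part the set of plates, which cannot be told apart. TNF was the only one of the 4 genes with an adjusted p-value under 0.05, and it was lower. Its level was 1.96-fold lower in induced cells, a log2 fold change of −0.97 (standard error 0.30, 95% confidence interval −1.62 to −0.31, adjusted p = 0.0388 from limma). Of the 85 genes tested 23.5% passed that threshold, so 1 of 4 is close to the share on the array. Induced and driver plates were fully apart for NFKB1 and TNF, 2 of 4 genes, against 54.1% of genes tested. NFKB1 had a log2 fold change of −0.33 (95% confidence interval −0.84 to 0.18, adjusted p = 0.32 from limma), NFKBIA of −0.14 (−0.66 to 0.37, adjusted p = 0.692) and IL8 of 0.05 (−0.48 to 0.58, adjusted p = 0.869). IL8 ranked 82 of 85 by the size of its change. The median of the 4 log2 fold changes was −0.24, against −0.08 over all genes tested.

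TNF against driver cells was sensitive to the plates and the scaling. TNF passed the threshold in 2 of 9 alternatives, B2M alone and the median of all genes as the scale. It did not pass with an unmoderated variance or with the unpaired test that the methods name, nor with a term for the set, where the log2 fold change was −0.55. Set 3 holds driver replicate 3 alone, so under that term the driver level rests on driver replicate 2. The term leaves 1 residual degree of freedom. Leaving out induced replicate 1 gave −0.75 (adjusted p = 0.177), and leaving out driver replicate 3 gave −0.84 (adjusted p = 0.135). On the plates of set 2 alone, 1 per condition, it was −0.62. Scaling also decided calls for the other genes, and B2M alone called 44 of 85 genes in this comparison. With B2M alone, which shifted the median of all genes from −0.08 to −0.55, NFKB1 (log2 fold change −0.80, adjusted p = 0.0135 from limma) and NFKBIA (−0.61, adjusted p = 0.04) passed the threshold as lower. With GAPDH alone, which shifted that median to 0.32, both were above 0 and neither passed.

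**Figure D3:**
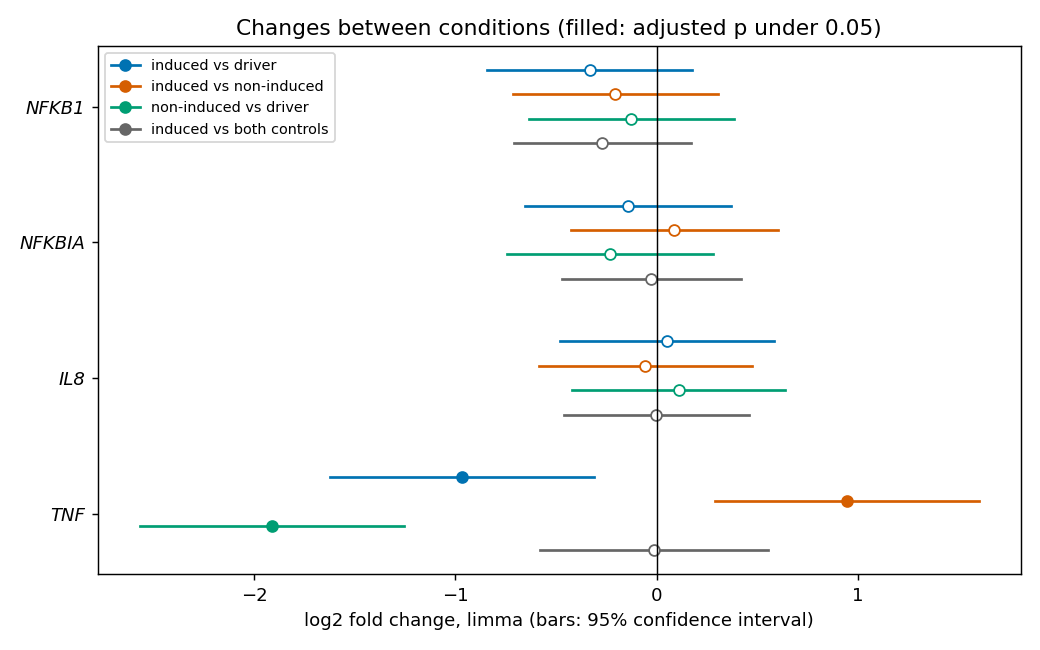
Log2 fold change of each gene in 4 comparisons, with 95% confidence intervals from limma and filled points for an adjusted p-value under 0.05. The intervals of NFKB1, NFKBIA and IL8 all include 0, and TNF lies at −0.97, 0.94, −1.91 and −0.01.

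Induced against non-induced cells compares the same construct with and without doxycycline. No plates of driver cells without doxycycline are among these data, so CaSm induction and doxycycline itself cannot be told apart. TNF was again the only one of the 4 genes to pass the threshold, but it was higher, 1.92-fold (log2 fold change 0.94, standard error 0.30, 95% confidence interval 0.29 to 1.6, adjusted p = 0.0415 from limma). Of the 83 genes tested here 25.3% passed the threshold, so 1 of 4 is again close to the array. That is 21 genes, which fell to 3 without non-induced replicate 1, 7 without non-induced replicate 2 and 13 without induced replicate 2. The 2 groups of plates were fully apart for NFKB1 and TNF, 2 of 4 genes against 61.4% of those tested. The log2 fold change was −0.21 for NFKB1 (−0.72 to 0.30, adjusted p = 0.532), 0.09 for NFKBIA (−0.42 to 0.60, adjusted p = 0.832) and −0.06 for IL8 (−0.59 to 0.47, adjusted p = 0.908). The signs of NFKB1 and IL8 turned with GAPDH alone or the median of all genes, that of IL8 also with HPRT1 alone, and that of NFKBIA with B2M alone. The median of the 4 genes was 0.02 and that of all genes tested −0.21. TNF passed in 4 of 9 alternatives (highest adjusted p = 0.392), and again not with the unmoderated variance or the unpaired test. Non-induced replicate 1, whose Ct was set to the limit, weighed on it. With that plate left out the log2 fold change was 0.58 (adjusted p = 0.322), and with induced replicate 2 left out it was 0.72 (adjusted p = 0.177). With B2M alone NFKB1 was called lower (log2 fold change −0.61, adjusted p = 0.0372 from limma), at the median of all genes under that scaling, which was −0.62. That scaling called 42 of the 83 genes.

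Non-induced against driver cells compares the 2 controls, which differ in construct, selection, doxycycline and in part the set of plates, so these cannot be told apart. TNF was 3.76-fold lower in non-induced cells, the second largest change of 85 genes by size (log2 fold change −1.91, standard error 0.30, 95% confidence interval −2.57 to −1.26, adjusted p = 0.0022 from limma). Only 7.06% of the genes tested passed the threshold in this comparison, and TNF was the 1 member among them. These are 6 genes, and they fell to 1 without non-induced replicate 1 and to 2 without non-induced replicate 2 or without driver replicate 3. The control groups were fully apart for NFKB1, NFKBIA and TNF, 3 of 4 genes against 50.6% of those tested, although the nearest plates of NFKB1 both round to a ΔCt of 3.72. NFKB1 had a log2 fold change of −0.13 (−0.64 to 0.38, adjusted p = 0.796), NFKBIA of −0.23 (−0.74 to 0.28, adjusted p = 0.605) and IL8 of 0.11 (−0.42 to 0.64, adjusted p = 0.821). The median over the members was −0.18 and over all genes 0.20. The difference in TNF was as large with B2M (−1.98), HPRT1 (−1.91) or GAPDH (−1.86) alone. Without non-induced replicate 1 it was −1.55 (adjusted p = 0.0708 from limma), and without any moderation of the variance the adjusted p-value was 0.214. On the plates of set 2 alone the difference was −1.42.

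**Figure D4:**
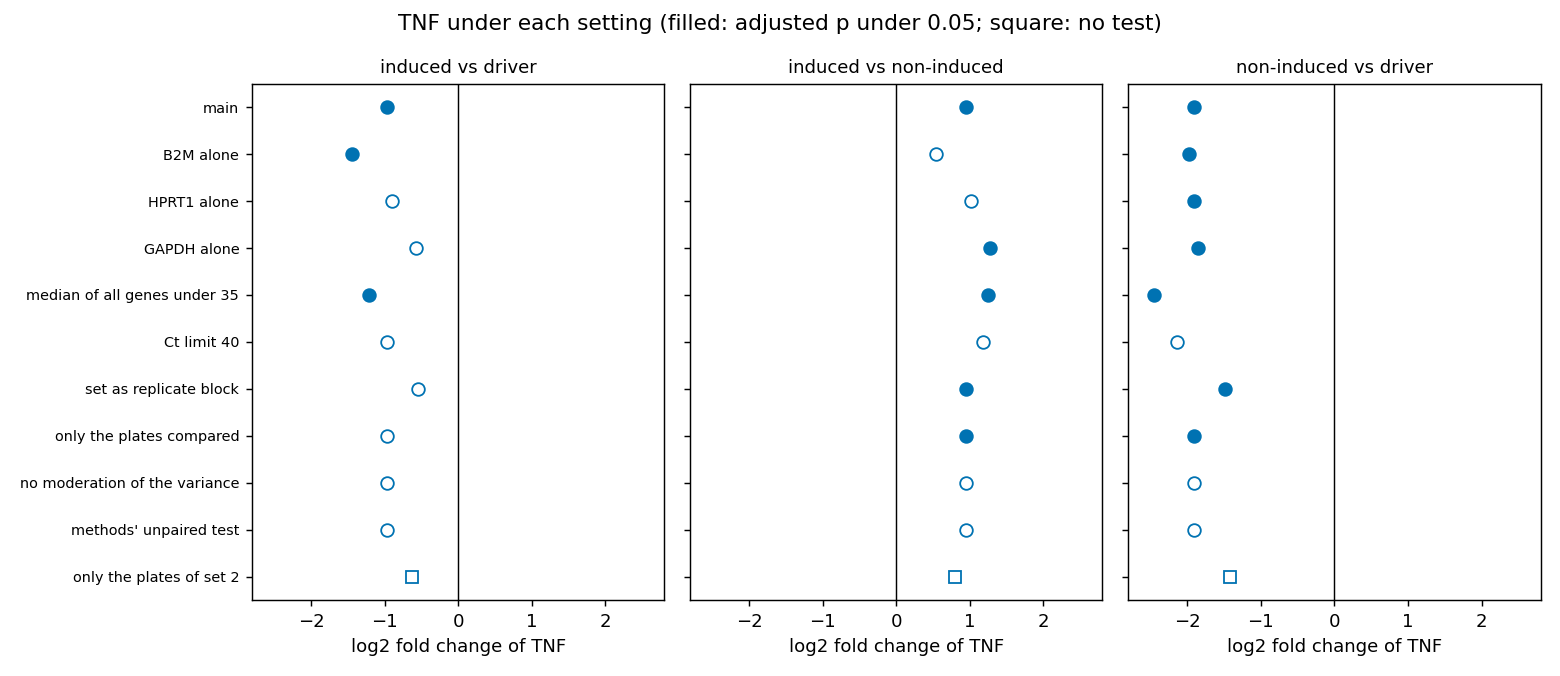
Log2 fold change of TNF in 3 comparisons under the reported setting and its alternatives, with filled circles for an adjusted p-value under 0.05 and squares where 1 plate a condition allows no test. Every point keeps its side of 0, while the call is kept in 2 of 9, 4 of 9 and 6 of 9 tested alternatives from left to right.

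With all 4 control plates together, none of the 4 genes passed the threshold in limma, and none had a p-value under 0.05 before adjustment, whereas 22.4% of 85 genes passed. None passed with the unmoderated variance or with the unpaired test that the methods name. The log2 fold change of TNF was −0.01 (95% confidence interval −0.58 to 0.55), since the induced plates lie between the controls. For NFKB1 alone of the 4 genes the induced plates were fully apart from the controls, against 36.5% of those tested. Its log2 fold change was −0.27 (−0.71 to 0.17, adjusted p = 0.341 from limma). NFKBIA and IL8 had log2 fold changes of −0.03 (−0.47 to 0.42) and −0.0025 (−0.46 to 0.46), and IL8 was last of 85 genes in size. With B2M alone NFKB1 (−0.71, adjusted p = 0.0103 from limma) and IL8 (−0.44, adjusted p = 0.0493) were called lower, 2 of 4 members where 57 of 85 genes were called and the median of all genes was −0.58. The comparisons share plates, so their values are given side by side and not as independent evidence.

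A difference between 2 Ct on 1 plate does not depend on the housekeeping genes. The ratio of inhibitor to subunit, NFKBIA over NFKB1, had a mean of 0.89 log2 units in driver, 0.79 in non-induced and 1.08 in induced cells, with a pooled plate SD of 0.13 (n = 2 plates each). The induced plates lay above all 4 control plates, by 0.24 log2 units over the mean of the controls. The nearest plates, induced replicate 1 at 0.98 and driver replicate 3 at 0.91, were closer than the pooled SD. How often other gene pairs are apart in this way was not counted. IL8 over NFKB1 was 0.39 log2 units higher in induced than in driver cells, with plates that did not overlap, and 0.15 higher than in non-induced cells, with plates that did (pooled SD 0.21). With NFKBIA as the denominator, IL8 was 0.195 higher in induced than in driver cells and 0.145 lower than in non-induced cells. The plates overlapped in both (pooled SD 0.23). TNF relative to NFKB1 was 0.64 log2 units lower in induced than in driver cells and 1.15 higher than in non-induced cells (pooled SD 0.30). Relative to NFKBIA it was 0.83 lower and 0.86 higher, so the middle position of induced cells for TNF was there without scaling. The Ct of TNF on non-induced replicate 1 entered these ratios as 35 too, so the TNF differences from non-induced cells depend on that limit. These ratios were not tested beyond the spread of plates.

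The genes around the pathway that the array also measures were described by lists. The TNF receptor family and its signalling is represented by TNFRSF1A, a receptor for TNF, TNFRSF10B and TNFRSF25, further receptors of the family, FAS, a death receptor, CASP8, the initiator caspase, and CFLAR, its inhibitor. Against driver cells 1 of these 6 rose in induced cells, TNFRSF10B (log2 fold change 1.48, adjusted p = 0.0025 from limma), and 1 fell, FAS (−1.35, adjusted p = 0.0031), where 23.5% of all genes tested were called. The paper states that its own real-time PCR did not bear out the lower FAS seen on the array. The receptor gene TNFRSF1A had log2 fold changes of −0.08, −0.23 and 0.15 in the first 3 comparisons, none called. Against non-induced cells, where 25.3% of genes were called, none of the 6 passed the threshold in limma, and TNFRSF10B alone had a p-value under 0.05 before adjustment. FAS was also lower in non-induced than in driver cells (−1.09, adjusted p = 0.0284), a call kept in 3 of 4 other scalings and 5 of 10 alternatives. The medians of this list were 0.54, 0.16 and 0.29 in these 3 comparisons, against −0.08, −0.21 and 0.20 over all genes tested.

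**Figure D5:**
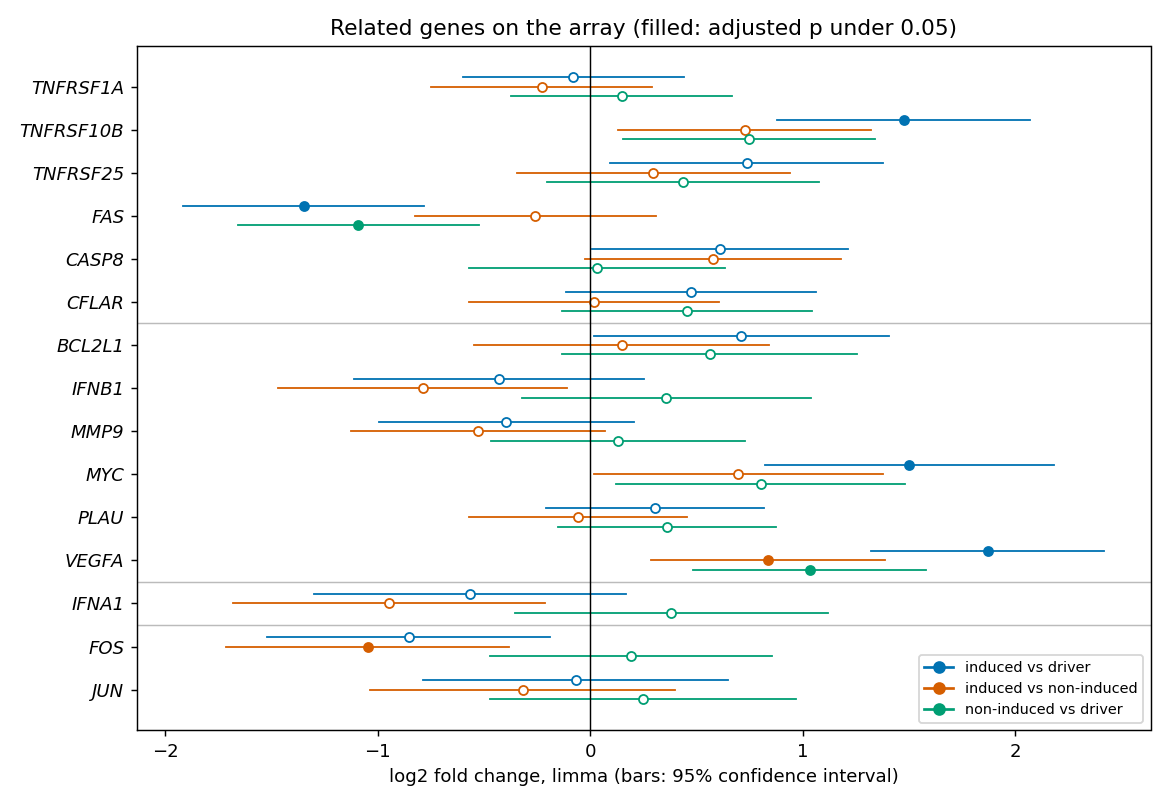
Log2 fold change with 95% confidence interval from limma for the related genes in 3 comparisons, with lines between the groups and filled points for an adjusted p-value under 0.05. From the top the groups are the TNF receptor family and its signalling, other NF-kB target genes, the interferon gene IFNA1 and the AP-1 genes, and the points of IFNA1 and IFNB1 include plates set to the Ct limit. VEGFA is filled in all 3 comparisons, and TNFRSF1A, CFLAR and PLAU in none.

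Of 8 other known NF-kB target genes (BCL2L1, CFLAR, FAS, IFNB1, MMP9, MYC, PLAU and VEGFA), 2 rose and 1 fell in induced against driver cells, beside 23.5% of all genes called. MYC, a growth-promoting transcription factor, had a log2 fold change of 1.5 (adjusted p = 0.0049 from limma) and VEGFA, the angiogenic growth factor, of 1.87 (adjusted p = 0.00066). FAS, which like CFLAR is counted in both lists, was the one that fell, and the paper's real-time PCR did not bear that fall out. Against non-induced cells VEGFA alone rose (0.84, adjusted p = 0.0367), 1 of 8 beside 25.3% of all genes. Between the controls VEGFA was higher in non-induced cells (1.03, adjusted p = 0.0284) and FAS lower, 2 of 8 beside 7.06%. The medians were 0.39, −0.02 and 0.41, against −0.08, −0.21 and 0.20 over all genes tested. MMP9, which encodes a matrix metalloproteinase, had log2 fold changes of −0.39, −0.53 and 0.13, and PLAU, which encodes urokinase, of 0.31, −0.06 and 0.36, none called. The directions of the called genes of these lists held under each of 4 other scalings. The call of VEGFA was kept in 2 of the 4 both against non-induced cells and between the controls, where it was kept in 4 of 10 alternatives. Neither of 2 interferon genes, IFNA1 and IFNB1, was called in any comparison by limma. Both had a p-value under 0.05 before adjustment when induced cells were set against non-induced cells or against the controls together. IFNB1 was past the Ct limit on 4 of 6 plates, both induced plates among them, and IFNA1 on 1 induced plate, so their fitted changes depend on the limit and are not given as sizes. Of the AP-1 genes, which act with NF-kB on the IL8 promoter, FOS fell against non-induced cells (−1.05, adjusted p = 0.034 from limma, kept in 2 of 4 scalings). FOS was also called lower against the controls together (−0.95, adjusted p = 0.0199 from limma, kept in 2 of 4 scalings). Against driver cells alone it had −0.85 and was not called (adjusted p = 0.064 from limma). JUN was not called in any comparison. Other list genes were also called against the controls together, where 22.4% of all genes were. VEGFA (1.36, adjusted p = 0.00135 from limma), TNFRSF10B (1.10, adjusted p = 0.0062) and MYC (1.10, adjusted p = 0.0107) were higher, each kept in 4 of 4 scalings. FAS was lower (−0.80, adjusted p = 0.0201 from limma, kept in 2 of 4 scalings), with plates that overlapped.

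The genes whose pattern over the 6 plates was closest to each member were found by the root mean square difference of −ΔCt, with each gene centred on its own mean, among 75 or 76 genes with a Ct under 35 on every plate. For IL8 they included RB1 (0.10 log2 units) and SNCG (0.13). Those closest to NFKB1 were SNCG (0.14), CDK4 (0.15) and S100A4 (0.15), and those closest to NFKBIA were PDGFB (0.15), CDK4 (0.15) and CDKN1A (0.15). All of these are genes that varied little, and a small difference follows from that. For TNF the nearest were FGFR2 (0.48), SERPINB5 (0.48) and FAS (0.55), several times farther away.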

How the data were processed

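The 6 plates of a Cancer PathwayFinder PCR array were grouped by their labels. The authors extracted RNA (RNeasy Plus), prepared cDNA, used a Roche Lightcycler, and deposited Ct values in cycles. The rule for their threshold is not given in the sources used here. A further deposited table holds signed fold changes from the authors' own comparisons and was not used. The plate mean of B2M, HPRT1 and GAPDH was subtracted, as in their ΔΔCt method. Ct values over 35 were first set to 35, a limit chosen here. On −ΔCt of all genes and all 6 plates, a model with 3 condition means (3 residual degrees of freedom) was fitted by limma 3.58.1 (R 4.3.3), its variances moderated by empirical Bayes. Adjusted p-values are two-sided, by Benjamini-Hochberg over all genes tested, with a threshold of 0.05, and come from this model unless another is named. The normalizing genes and genes at the limit on every plate compared were left out. The model was tested on simulated data. Python 3.11.15 and matplotlib 3.10.9 served for motifs and figures. Of 89 gene names, 88 matched a RefSeq symbol and 1 (IL8) a synonym. The members and related gene lists were chosen with earlier results of these data known. Named genes are the members, list genes with an adjusted p-value under 0.05 in at least 1 comparison and the 3 genes closest in pattern to each member. Of these, 1 is not reported here. Other list genes were named after their values were seen, to describe each list. Alternatives were other scalings, a limit of 40 cycles, leaving out genes whose mean Ct was 30 or later, a term for the set of plates, other variance models, set 2 alone and leaving out each plate.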

Additional observations from a re-analysis of the deposited data

Results flagged for a closer look

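The direction of the TNF difference in induced cells depended on the control, and neither control isolates CaSm. TNF was lower than in driver cells and higher than in non-induced cells. The gap between these changes equals non-induced against driver cells, −1.91 on the log2 scale (adjusted p = 0.0022 from limma). All 6 plates kept the order driver, induced, non-induced.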

How the results depend on the processing

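All values are log2 fold changes unless they are counts of genes called or named otherwise. The direction of TNF was the same under every alternative in the 3 comparisons between single conditions, while its call was not. For induced against driver cells TNF lost its call with HPRT1 alone (−0.90), GAPDH alone (−0.58), the set of plates as a replicate block (−0.55), and at −0.97 with a Ct limit of 40, with only the plates compared, with no moderation of the variance and with the methods' unpaired test, and leaving out 1 plate gave −1.19 to −0.75. For induced against non-induced cells it lost its call with B2M alone (0.54), HPRT1 alone (1.01), a Ct limit of 40 (1.17) and, at 0.94, no moderation and the methods' unpaired test, and leaving out 1 plate gave 0.58 to 1.31. For non-induced against driver cells it lost its call with a Ct limit of 40 (−2.14) and, at −1.91, no moderation and the methods' unpaired test, it moved to −1.42 on set 2 alone, and leaving out 1 plate gave −2.28 to −1.55. Of the 4 members, 1 was called in each of these comparisons. Against driver cells 3 were called in induced cells with B2M alone, and 0 with HPRT1, GAPDH, a Ct limit of 40, genes with a mean Ct under 30 (which leaves TNF out), the replicate block, only the plates compared, no moderation and the methods' test. Against non-induced cells 0 were called with HPRT1, a Ct limit of 40, genes under 30, no moderation and the methods' test, and between the controls 0 with the last 4 of these. Leaving out 1 plate gave 0 to 1 in each. Against both controls 2 were called with B2M alone, and 0 otherwise. The signs of small changes turned. In induced against driver cells GAPDH alone gave NFKB1 0.06 and NFKBIA 0.25, and IL8 was −0.42 with B2M, −0.20 with the median of all genes, −0.16 with the replicate block and −0.065 to 0.17 when 1 plate was left out. In induced against non-induced cells NFKB1 was 0.13 with GAPDH and 0.09 with the median, NFKBIA −0.32 with B2M and −0.0167 to 0.19 when 1 plate was left out, and IL8 0.01 with HPRT1, 0.28 with GAPDH, 0.24 with the median and −0.17 to 0.0583 when 1 plate was left out. Between the controls IL8 was −0.44 with the median, −0.11 with the replicate block, and between −0.00833 and 0.23 when 1 plate was left out. Against both controls NFKB1 was 0.10 with GAPDH. NFKBIA was 0.0425 with HPRT1, 0.34 with GAPDH, 0.0171 with the replicate block and −0.13 to 0.0775 when 1 plate was left out. IL8 was 0.0675 with HPRT1, 0.36 with GAPDH, 0.0225 with the median and −0.12 to 0.11 when 1 plate was left out. TNF was 0.0575 with HPRT1, 0.35 with GAPDH, 0.0125 with the median, 0.10 with a Ct limit of 40, 0.20 with the replicate block and −0.23 to 0.21 when 1 plate was left out. The mean ΔCt in driver, non-induced and induced cells was 0.56, 0.50 and 0.10 for B2M itself. It was 1.61, 1.615 and 1.68 for HPRT1, and −2.17, −2.115 and −1.78 for GAPDH. Scaling by 1 gene carries that gene's own difference into every value. Why these genes differed, and any other cause of the shifts, was not tested. The set number was not taken to pair plates, since set 1 minus set 2 correlated at r = −0.17 over 76 genes between the tet-on CaSm conditions. A crossed pairing, added after seeing the data, called 19 genes and 1 member in induced against non-induced cells, against 24 genes with the replicate block and 21 without. Over all genes, 20 were called in induced against driver cells, 44 with B2M, 11 with HPRT1, 10 with a Ct limit of 40, 11 with only the plates compared, 5 with no moderation and 2 with the methods' test. Against non-induced cells 21 were called, 42 with B2M, 6 with HPRT1, 8 with a Ct limit of 40, 4 with no moderation and 0 with the methods' test, and between the controls 6, with 1 and 0 under the last pair of settings. Leaving out 1 plate gave 15 to 17, 3 to 20 and 1 to 7 genes in these 3 comparisons. Late cycles limit TNF, and 2 plates a condition limit all values.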
